A study of Homo sapiens with 58 samples.

Results

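The last hours of a presomitic mesoderm time course were examined, as the step from 450-510 min to 630-690 min. The samples were 12 RNA-seq libraries of the 58 in the series and of the 46 in the time course. They were taken by their labelled times, 6 libraries at 630, 660 and 690 min and 6 at 450, 480 and 510 min, with 2 replicates at each time point. All of them came from H1, an established human embryonic stem cell line, labelled wild type at passage p30-p40 and led towards presomitic mesoderm in culture. Per the labels, differentiation began with activin A and the Wnt pathway activator CHIR99021, followed by presomitic medium with A83-01, CHIR99021, FGF2 and NOGGIN, and a somite medium held PD0325901, IWR1, A83-01 and NOGGIN. The labels do not give which medium the course was kept in or what its zero point was. Whether replicates were grown as separate cultures is not in the labels. The p-values therefore speak of library-to-library spread within windows. Each window pools its time points, so this spread, and each SD over the 6 libraries of a window, also holds any change over time within the window. The spread between replicates of a time point may be technical in part or in whole. Libraries of successive time points may not be independent.

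Presomitic mesoderm is the unsegmented tissue beside the neural tube from which somites, the blocks that later form vertebrae and skeletal muscle, bud off at regular intervals. A molecular oscillator, the segmentation clock, sets the interval through Notch signalling and short-lived repressors such as HES7, while FGF and Wnt signals hold cells in the immature state. As these signals decline, cells pass a determination front, switch on segment border genes of the MESP and RIPPLY families, and form an epithelial somite marked by MEOX1, TCF15 and PAX3.

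Depth ranged from 2.84 to 8.96 M expected counts. Levels below are CPM, expected counts per M on TMM-scaled library totals. A count of 0 allows up to 0.325 to 1.02 CPM on that scale, a limit that covers counting error only. Replicates of a time point correlated at r 0.916 to 0.951 across genes, on log2 CPM, and no pair was close enough to be a duplicate. At 450-510 min, 2 libraries stood apart, 450 min replicate 2 and 510 min replicate 1. Their median correlations with the other 11 libraries were 0.904 and 0.916, against 0.926 to 0.951 for the rest, and they had the fewest genes detected (12890 and 12957, against 13247 to 14044). The calls between the windows and the counts over gene lists were also computed without them.

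In the late window 238 genes were higher and 153 lower than at 450-510 min, of 11389 genes tested with edgeR's quasi-likelihood test at a Benjamini-Hochberg adjusted p under 0.05, which is 3.43% of the genes (2.09% higher and 1.34% lower). Among them 64 were higher and 34 lower by at least 1 log2 unit. The median log2 fold change over all tested genes was -0.01. The 6 late libraries did not overlap the 6 earlier ones in 291 genes, 2.56% of those tested (1.81% with the late window higher and 0.746% lower), and 213 of these were also called. Without both libraries that stood apart, 221 genes were higher and 123 lower, and 275 of the 391 calls were shared. The number of calls depended on single libraries: it was 640 without 630 min replicate 1, 232 without 690 min replicate 1 and 253 without 690 min replicate 2. The number of lower genes was moved past 1.5 times by these 3 omissions, to 293, 72 and 83, and also by leaving out 450 min replicate 2 (100), 660 min replicate 1 (94) or 660 min replicate 2 (93). Without scaling beyond library totals, the split was 297 higher and 112 lower, and the median of all genes moved to 0.05.

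The 6 libraries at 540-600 min, which did not enter the 12-library test between the windows, lay between them for nearly all called genes. Of the 238 higher genes, 234 (98.3%) had a mean level at 540-600 min between the means of the windows, as did 152 of the 153 lower genes (99.3%). Over all tested genes this held for 5399 of 11389 (47.4%). Called genes were picked for window means that lie apart, so a level in between can follow from that choice alone. The shares therefore describe the called genes and are no separate support for the calls. The higher genes had covered a median of 47.1% of their change by then and the lower genes 42.9%, on a log2 scale with 0.5 CPM added. Over all tested genes the median was 47.0%, so these values are not particular to the called genes.

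The rises and falls described next come from called genes with at least 10 CPM in the higher window and no overlap between windows. For these genes, here and below, a lack of overlap was set by that choice and is no added support. The largest fitted rise among them was that of FOXD1, a forkhead transcription factor. It was at 0.285 to 2.76 CPM (median 2.04) at 450-510 min and at 19.1 to 29.1 CPM (median 27.1) at 630-690 min. The lowest late library was far above the highest earlier one, and the log2 fold change was 3.70 (SE 0.32, adjusted p = 3.09e-07). Its means over successive time points from 510 to 690 min were 1.5, 4.93, 9.87, 15.7, 23.6, 24.1 and 27.4 CPM. DMRT2, a transcription factor of the dermomyotome, was at 0 to 3.21 CPM (median 0.342) and then at 4.68 to 20.7 CPM (median 13.2), a log2 change of 3.64 (SE 0.62, adjusted p = 0.000966). Several of the earlier DMRT2 values lie within the limit that a count of 0 allows, so its fold is poorly bounded. HHIP, which binds and sequesters hedgehog ligands, rose from 1.89 to 11.4 CPM, but its call was lost without 690 min replicate 2 (adjusted p = 0.0628).

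TP53INP1, a nuclear protein first found as a p53 target, had 144 to 309 CPM (median 244.5) in the earlier libraries and 554 to 858 CPM (median 690.5) in the late ones. The libraries did not overlap, as the choice of genes required, and the log2 change was 1.59 (SE 0.16, adjusted p = 2.3e-06). G0S2, an inhibitor of triglyceride lipase, had 3.89 to 22.5 CPM and then 53.3 to 74.4 CPM (log2 change 2.30). ADAM12, a membrane metalloprotease, went from 10.2 ± 5.75 to 42.7 ± 14.4 CPM (SD, n = 6 each), and EYA4, a transcriptional coactivator and phosphatase, from 8.08 ± 4.07 to 24.7 ± 2.15 CPM. TRH, the precursor of thyrotropin-releasing hormone, rose from 11.7 ± 5.38 to 35.9 ± 4.48 CPM. DDIT4L, an inhibitor of mTOR signalling, the protocadherin PCDH20, the Ras-association protein RASSF2 and KIAA1024 complete the 12 largest rises among genes so chosen. Their log2 changes were 1.66 to 2.66.

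The falls chosen in the same way were led by GJA5, the gap junction protein connexin 40. It went from 13.8-33.0 CPM (median 16.6) to 1.05-13.4 CPM (median 4.40). The windows nearly touched, and the log2 change was -1.84 (SE 0.40, adjusted p = 0.00831). HRC, a calcium-binding protein of the sarcoplasmic reticulum, fell from 17.5 ± 3.30 to 5.5 ± 2.75 CPM. DIO3, the deiodinase that inactivates thyroid hormone, fell from 20.0 ± 3.30 to 7.50 ± 3.36 CPM. SNRNP35, a protein of the minor spliceosome, fell from 44.0 ± 10.4 to 17.3 ± 4.91 CPM, and PPL, the desmosomal linker periplakin, from 40.6 ± 16.4 to 18.9 ± 5.75 CPM. PRR5L, a partner of mTORC2, and GYPC, the membrane protein glycophorin C, fell by 1.17 and 1.16 on the log2 scale. STK17A, a kinase, also fell, but its call was lost when any one of 5 libraries was left out (480 or 510 or 630 min replicate 2, or either replicate at 690 min), with adjusted p of 0.0577 to 0.0973. HEYL, ANKRD1, CDX1 and CYR61 complete the 12 largest falls among genes so chosen and are described with their pathways.

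**Figure D1:**
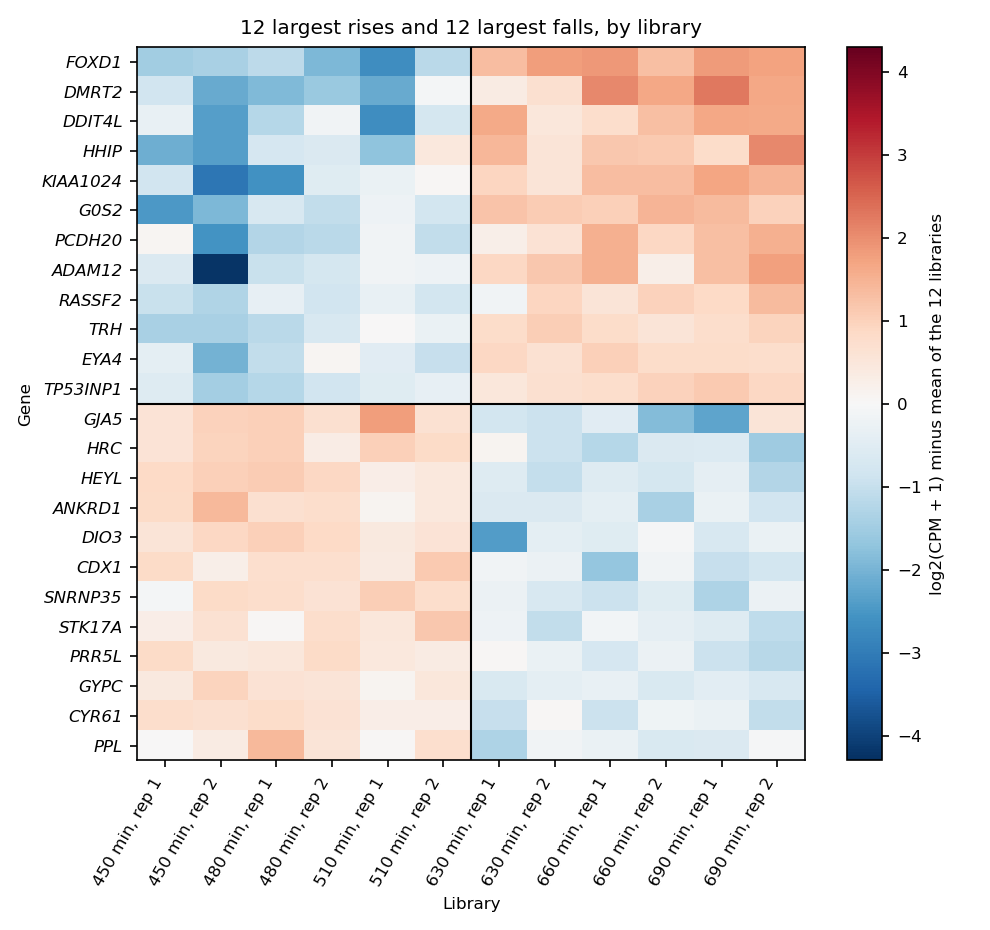
Heat map of the 12 largest rises (above the line) and 12 largest falls (below it) in the 12 libraries, with the colour giving log2(CPM + 1) minus the gene's mean over the 12 libraries. The genes were chosen so that the windows do not overlap, and the spread within a window, as for GJA5 at 510 min replicate 1, can be seen along each line.

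Gene lists, here and below, were chosen with earlier results of these data known. Over all 11389 tested genes 2.09% were called higher and 1.34% lower, the shares to set beside the list counts. Of 18 somite and segment border genes 14 were tested, 7 rose and 1 fell, and their median log2 change was 0.56. MEOX1, a homeobox factor of the somite, had 124 to 228 CPM (median 177) and then 294 to 371 CPM (median 340), a log2 change of 0.94 (SE 0.13, adjusted p = 0.000104). RIPPLY1, a corepressor that closes the segmentation programme behind the front, had 72.8 to 173 CPM (median 106) and then 281 to 402 CPM (median 318), a log2 change of 1.48 (SE 0.17, adjusted p = 1.78e-05). In both genes every late library was above every earlier one.

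PCDH8, the protocadherin also called paraxial protocadherin, was the most abundant of the group. It had 469 to 1249 CPM (median 621) and then 1561 to 2064 CPM (median 1957), a log2 change of 1.30 (SE 0.18, adjusted p = 0.000118). The 2 libraries at 510 min, at 1249 and 1066 CPM, were already far above the other 4 of their window. PAX3, which marks the dermomyotome and later muscle precursors, rose from 8.20 ± 2.56 to 21.1 ± 5.93 CPM (log2 change 1.33, adjusted p = 0.00302). EPHA4, an Eph receptor of the segment border, rose from 60.1 ± 7.46 to 108 ± 17.5 CPM (adjusted p = 0.000378). FOXC1, a forkhead factor of paraxial mesoderm, rose from 343 ± 61.1 to 506 ± 63.2 CPM (adjusted p = 0.00989). CDH11, a mesenchymal cadherin, rose from 86.0 ± 21.1 to 134 ± 35.5 CPM, but this call was lost when any one of 7 libraries was left out (either replicate at 450 or 690 min, replicate 2 at 480 or 510 min, or 660 min replicate 1), with adjusted p of 0.0525 to 0.132, and without both libraries that stood apart (0.110).

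RIPPLY2, the second corepressor of that family, went the other way. It had 119 to 154 CPM (median 129) at 450-510 min and 46.9 to 81.2 CPM (median 70.7) at 630-690 min, with no overlap and a log2 change of -1.0 (SE 0.14, adjusted p = 0.000159). The decline was not gradual: the means at 540, 570 and 600 min were 77.3, 141 and 137 CPM, and those at 630, 660 and 690 min 80.5, 71.3 and 50.4 CPM. MESP2, a transcription factor of the segment border, had 37.1 ± 11.1 and 32.1 ± 6.87 CPM (adjusted p = 0.620). TCF15, a factor that makes somites epithelial, had 281 ± 92.2 and 407 ± 89.8 CPM, which did not pass the test (adjusted p = 0.108). Without 510 min replicate 1, its highest earlier library at 437 CPM, it did (adjusted p = 0.00702). FOXC2 had 34.0 ± 11.8 and 49.6 ± 7.60 CPM (adjusted p = 0.139). Retinoic acid is made in somites by ALDH1A2, which had 186 ± 32.5 and 180 ± 32.3 CPM (adjusted p = 0.889).

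**Figure D2:**
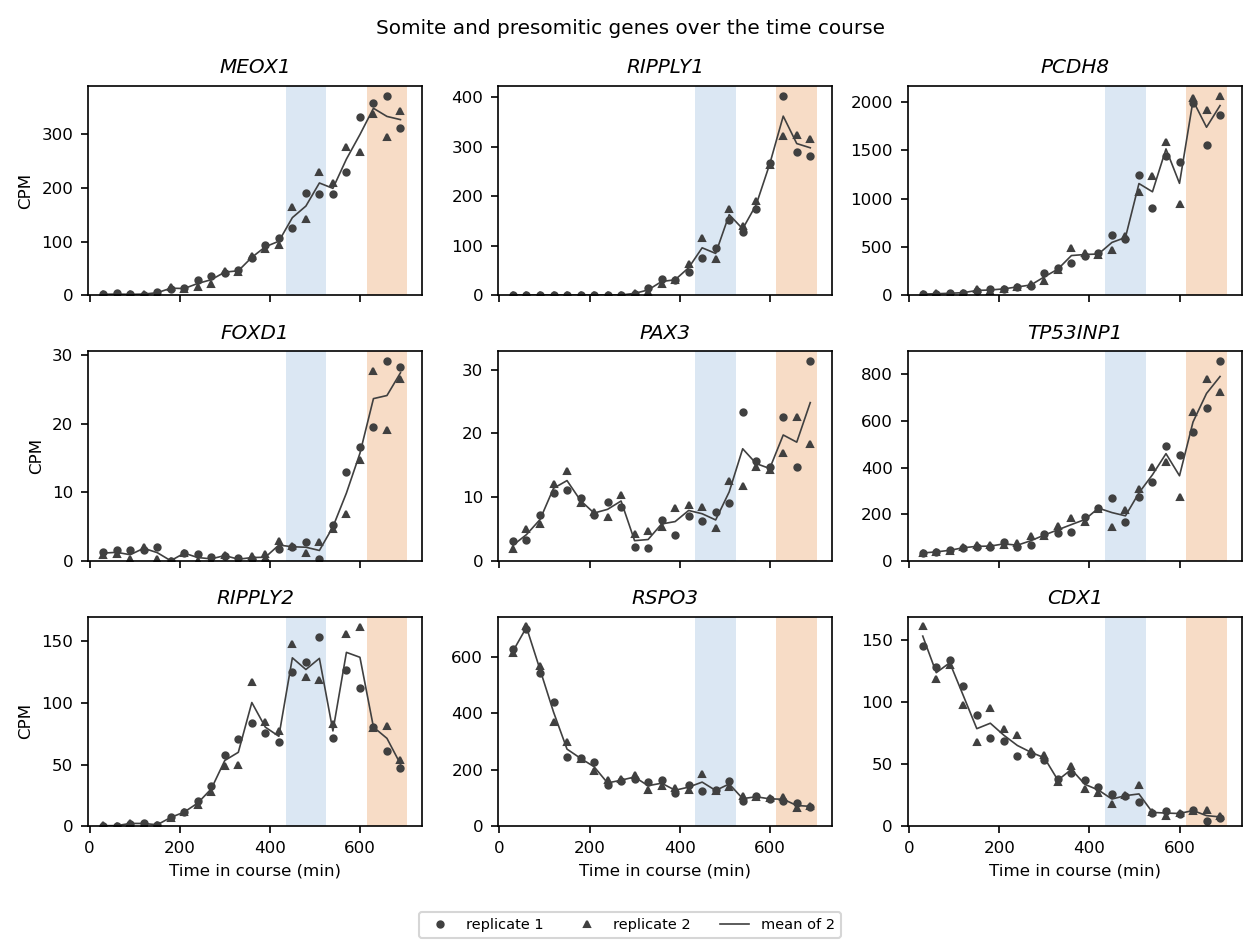
CPM of 9 genes against time in the course, with circles for replicate 1, triangles for replicate 2, a line for the mean of 2, blue shading at 450-510 min and orange shading at 630-690 min. FOXD1 stayed under 3 CPM until 510 min and reached 27.4 CPM at 690 min, and RIPPLY2 dropped at 540 min, returned at 570 and 600 min and dropped again.

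Of 18 genes of immature presomitic mesoderm, 15 were tested, none rose and 3 fell, and the median log2 change was -0.51. RSPO3, which amplifies Wnt signalling, had 125 to 186 CPM (median 134) and then 62.8 to 101 CPM (median 77.5), a log2 change of -0.87 (SE 0.14, adjusted p = 0.000491). CDX1, a caudal-type factor of posterior tissue, had 17.5 to 32.8 CPM (median 24.6) and then 3.90 to 13.0 CPM (median 10.1), a log2 change of -1.39 (SE 0.27, adjusted p = 0.00314). Neither gene overlapped between windows. The Notch ligand DLL1 is the third.

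The library label is presomitic mesoderm, and its defining genes stood on both sides of their levels in the Day2 presomitic libraries of the series. MSGN1, a master regulator of presomitic fate, had 4.05 ± 1.58 and then 2.02 ± 1.11 CPM (adjusted p = 0.332), against 32.2 ± 23 CPM (n = 3) at Day2. T, the brachyury factor, had 6.87 ± 2.55 and 5.57 ± 1.73 CPM (adjusted p = 0.743), against 62.1 ± 20.2 CPM at Day2. TBX6 had 22 ± 13.9 and 11 ± 6.31 CPM, against 14.9 ± 4.62 CPM at Day2. Its adjusted p of 0.271 became 0.0411 without 510 min replicate 1, where it was at 0.854 CPM, or 3 counts, against 14.8 to 38.7 CPM in the other 5. HES7, the clock repressor in the title of the series, had 2.71 to 11.3 CPM (median 5.18) and then 1.34 to 3.85 CPM (median 2.54), overlapping and not called (adjusted p = 0.217). Its mean at 450-510 min was 5.78 ± 3.04 CPM, and at Day2 it was at 1.05 ± 0.929 CPM. In bulk samples fewer cells of a type and less RNA per cell cannot be told apart.

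Notch pathway genes moved in both directions. Of 23 listed 17 were tested, 5 rose and 2 fell, with a median log2 change of 0.33. Among ligands and receptors, DLL1 fell from 414-566 CPM (median 464) to 301-389 CPM (median 346), a log2 change of -0.49 (SE 0.11, adjusted p = 0.00776). NOTCH2 rose from 84.8-121 CPM (median 101) to 127-273 CPM (median 207), a log2 change of 0.98 (SE 0.15, adjusted p = 0.000403). Within the late window NOTCH2 was lowest at 630 min (127 and 162 CPM) and highest at 690 min (273 and 254 CPM). DLL3, a ligand-like inhibitor, had 355 ± 52.8 and 345 ± 30.9 CPM (adjusted p = 0.881).

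The targets and regulators of the pathway split as well. HEY1, a target repressor, rose from 96.4-142 CPM (median 120) to 175-282 CPM (median 196), a log2 change of 0.81 (SE 0.13, adjusted p = 0.000523). NRARP, a target that dampens the pathway, rose from 41.1-89.6 CPM (median 64.6) to 93.4-126 CPM (median 114), a log2 change of 0.77 (SE 0.15, adjusted p = 0.00338). HEYL, a repressor of the same family as HEY1, fell from 72.0-125 CPM (median 109) to 23.8-44.5 CPM (median 36.8), a log2 change of -1.57 (SE 0.17, adjusted p = 5.29e-06). None of these overlapped between windows. RBPJ, the DNA-binding partner of the receptors, rose from 70.3 ± 5.62 to 101 ± 12.6 CPM, with its call lost without 690 min replicate 1 (adjusted p = 0.0627). MAML3, a coactivator, rose from 35.7 ± 12.5 to 61.3 ± 8.73 CPM, with its call lost without 690 min replicate 1 or 2 (0.0510 and 0.0521). LFNG, the fringe enzyme of the clock, had 256 ± 57.6 and 324 ± 60.7 CPM (adjusted p = 0.235). Without 450 min replicate 1, its highest earlier library at 370.2 CPM, it passed (0.0383).

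**Figure D3:**
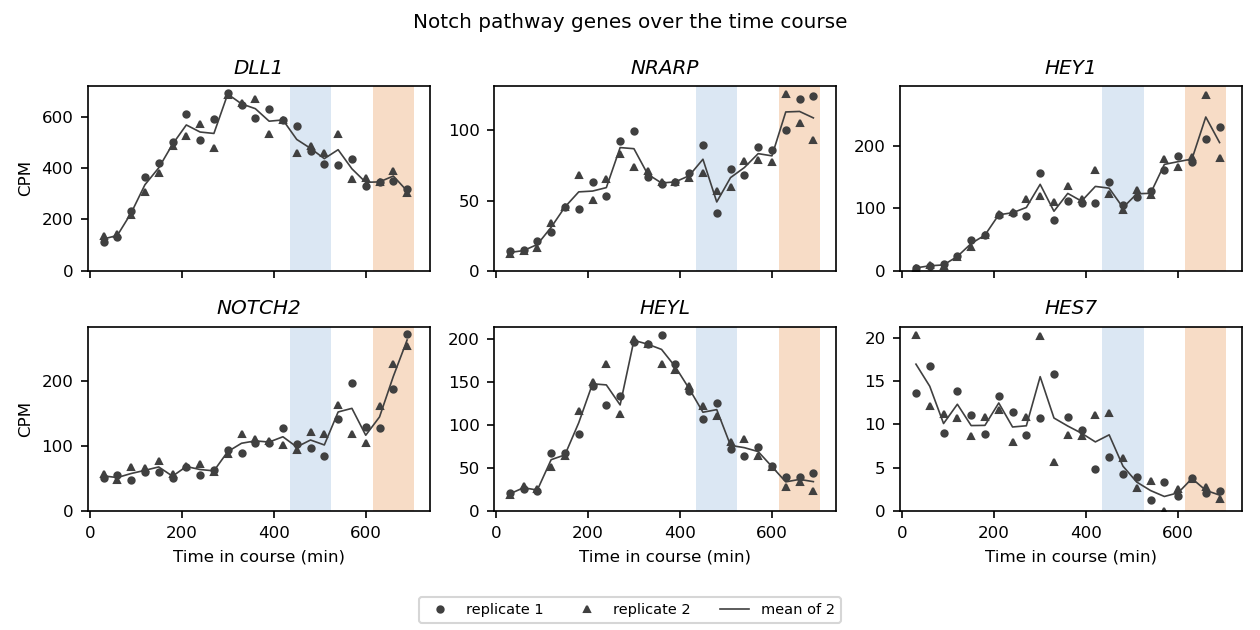
CPM of 6 Notch pathway genes against time in the course, with circles for replicate 1, triangles for replicate 2, a line for the mean of 2, blue shading at 450-510 min and orange shading at 630-690 min. HEYL had its highest mean, 198 CPM, at 300 min and was near 34 CPM at 690 min, while NOTCH2 climbed within the late window.

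The promoters of HEYL and NRARP are shown because these targets of one pathway moved in opposite directions. Each is the 250 bases before the start of the gene, from RefSeq on GRCh38.p14, 5′ to 3′ on the minus strand of the chromosome, the strand of the gene. Capitals mark the letters TGGGAA, a core of the RBPJ site, or their complement TTCCCA. The motif was sought on both strands, and 21.1% of 27303 promoters of this length hold it.
HEYL, chr1:39639644-39639893: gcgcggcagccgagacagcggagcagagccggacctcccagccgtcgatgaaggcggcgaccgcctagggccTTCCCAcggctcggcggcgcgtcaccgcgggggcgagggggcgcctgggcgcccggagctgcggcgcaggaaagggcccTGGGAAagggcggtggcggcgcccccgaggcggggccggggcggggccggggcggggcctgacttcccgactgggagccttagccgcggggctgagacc
NRARP, chr9:137302272-137302521: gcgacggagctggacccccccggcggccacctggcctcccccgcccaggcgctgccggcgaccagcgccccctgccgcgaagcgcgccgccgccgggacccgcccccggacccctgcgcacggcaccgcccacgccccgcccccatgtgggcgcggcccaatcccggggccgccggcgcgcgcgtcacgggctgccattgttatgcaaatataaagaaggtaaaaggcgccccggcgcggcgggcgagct
HEYL holds 2 matches, 178 and 99 bases before the start, and NRARP holds none in this window. A match is a description of the letters and shows no binding.

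FGF and Wnt targets had few calls. Of 18 FGF-ERK targets 13 were tested and 2 fell, with a median log2 change of -0.29. DUSP5, a phosphatase that inactivates ERK, had 236 to 382 CPM (median 311) and then 95.6 to 199.5 CPM (median 165), with no overlap and a log2 change of -0.97 (SE 0.16, adjusted p = 0.000523). ETV4, an ETS factor downstream of FGF, fell from 20.0 ± 5.75 to 10.03 ± 2.97 CPM. Its call was lost when any one of 7 libraries was left out (either replicate at 450, 660 or 690 min, or 480 min replicate 1), with adjusted p of 0.0509 to 0.0814, and without both libraries that stood apart (0.110). DUSP6 was at 8.29 ± 6.39 and 4.62 ± 3.09 CPM (adjusted p = 0.393), FGF17 at 12.9 ± 5.54 and 10.6 ± 2.22 CPM (0.658), and FGF8 and SPRY4 were too low to test. Of 15 Wnt targets 13 were tested, 1 rose and the median was -0.39. The riser was CCND2, cyclin D2, from 118 ± 16 to 180.3 ± 19.8 CPM (adjusted p = 0.00302). AXIN2, a feedback inhibitor of the Wnt pathway, had 73.7 ± 16.5 and 55.6 ± 13.5 CPM (adjusted p = 0.195), SP5 had 5.68 ± 2.71 and 4.04 ± 2.74 CPM (0.647), and CDX2 had 2.05 ± 1.80 and 3.28 ± 2.08 CPM (0.643).

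Among genes of retinoic acid metabolism RDH10 rose. The enzyme, which makes the retinaldehyde that ALDH1A2 oxidises, had 56.1 to 100 CPM (median 82.5) and then 134 to 199 CPM (median 174), a log2 change of 1.10 (SE 0.14, adjusted p = 3.39e-05).

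Of 21 immediate early genes, which respond within minutes to growth factors and mechanical cues, 11 were tested, none rose and 5 fell, with a median log2 change of -0.50. IER5 had 107 to 164 CPM (median 117) and then 44.8 to 85.0 CPM (median 66.1), a log2 change of -0.96 (SE 0.16, adjusted p = 0.000582). CYR61, a secreted matricellular protein, had 54.1 to 76.9 CPM (median 70.3) and then 20.9 to 45.6 CPM (median 29.7), a log2 change of -1.13 (SE 0.19, adjusted p = 0.000618). Neither overlapped. KLF6, ATF3 and CTGF also fell, with less secure calls. Without one of 6 libraries KLF6 was at adjusted p 0.0502 to 0.0568 (either replicate at 450 or 690 min, 630 min replicate 2, 660 min replicate 1). Without one of 7 libraries ATF3 was at 0.0533 to 0.0860 (either replicate at 450, 480 or 690 min, 660 min replicate 1) and CTGF at 0.0541 to 0.0943 (either replicate at 450 or 690 min, replicate 2 at 480 or 630 min, 660 min replicate 1). With no scaling beyond library totals, 3 of the 11 fell.

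CYR61 and CTGF are also targets of YAP and TEAD, the effectors of the Hippo pathway, as is ANKRD1. All 14 listed genes of that pathway were tested, 1 rose and 3 fell, with a median of -0.10. ANKRD1, an ankyrin repeat protein, had 16.5 to 41.3 CPM (median 25.4) and then 5.12 to 12.0 CPM (median 9.37), with no overlap and a log2 change of -1.51 (SE 0.25, adjusted p = 0.000534). CTGF had 73.4 to 98.1 CPM and then 47.9 to 73.7 CPM, a log2 change of -0.50. YAP1 itself, the coactivator, rose from 157 ± 31.8 to 248 ± 41.5 CPM (log2 change 0.64, adjusted p = 0.00983). The other 10 genes were not called.

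The promoters of ANKRD1 and CTGF are shown as examples of targets that fell. CYR61, which also fell, was not searched, and the CTGF call was lost without any one of 7 libraries. The sequences are again 250 bases from RefSeq on GRCh38.p14, 5′ to 3′ on the minus strand, the strand of the genes. Capitals mark GGAATG, a core of the TEAD site, sought on both strands. It occurs in 11.9% of the 27303 promoters.
ANKRD1, chr10:90921088-90921337: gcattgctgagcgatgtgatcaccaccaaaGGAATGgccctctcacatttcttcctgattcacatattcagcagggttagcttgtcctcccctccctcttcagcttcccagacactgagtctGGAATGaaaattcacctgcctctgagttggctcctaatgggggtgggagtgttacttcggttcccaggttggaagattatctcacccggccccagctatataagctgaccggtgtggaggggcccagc
CTGF, chr6:131951373-131951622: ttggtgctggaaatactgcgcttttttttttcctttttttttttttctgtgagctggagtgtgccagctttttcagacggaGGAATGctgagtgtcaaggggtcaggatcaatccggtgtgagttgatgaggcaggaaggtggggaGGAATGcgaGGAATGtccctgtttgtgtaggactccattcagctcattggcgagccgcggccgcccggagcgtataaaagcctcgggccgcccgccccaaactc
ANKRD1 holds 2 matches, 220 and 128 bases before the start, and CTGF 3, at 169, 104 and 95 bases. The matches were not tested against the change in level.

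The remaining pathways had few calls. Of 20 G2/M genes CENPE and HMMR fell, the former from 256 ± 19 to 187 ± 18.9 CPM (adjusted p = 0.0114), and none of 18 G1/S genes was called. A positive change was seen in 2 of the 20 G2/M genes (median -0.14), against 5525 of all 11389 tested genes. HMMR lost its call without 510 min replicate 2 (adjusted p = 0.0560), 660 min replicate 2 (0.0532) or 690 min replicate 1 (0.0525). PFKP, a phosphofructokinase of glycolysis, rose from 31.7 ± 4.52 to 60.2 ± 9.44 CPM (adjusted p = 0.000582), while the median of the 20 glycolysis genes was -0.18. HK2, a hexokinase, rose from 54.1 ± 9.64 to 78.4 ± 8.76 CPM, but not without both libraries that stood apart (adjusted p = 0.0631) or any one of 8 libraries (0.0508 to 0.103), all but 450, 510 and 630 min replicate 1 and 480 min replicate 2. NR1D2, a repressor of the circadian clock, rose from 48.4 ± 8.93 to 89.1 ± 14.8 CPM (adjusted p = 0.000663) and was the only called gene of 8 tested. In the extracellular matrix list COL2A1, the cartilage and notochord collagen, rose from 171 ± 37.4 to 286 ± 38.6 CPM (adjusted p = 0.00196), and 19 of 26 genes had a positive change (median 0.15). FBN2, a fibrillin, rose from 153 ± 45.0 to 249 ± 51.0 CPM, but not without 450 min replicate 2 (adjusted p = 0.0510), 690 min replicate 1 (0.0724) or replicate 2 (0.0640), or without both libraries that stood apart (0.0678). KRT19, an epithelial keratin, fell from 1535 ± 300.1 to 862 ± 312 CPM (adjusted p = 0.00605), with its late libraries descending from 1417 and 996 CPM at 630 min to 567.6 and 614.5 CPM at 690 min. CDH2, N-cadherin, rose from 452 ± 87.6 to 617 ± 44.1 CPM (adjusted p = 0.0448), but not without any one of 9 libraries (0.0624 to 0.117), all but 450, 510 and 630 min replicate 1.

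TP53INP1 was the only riser of 12 tested p53 targets, where FDXR, a mitochondrial reductase, fell from 60.7 ± 10.9 to 36.5 ± 8.34 CPM. The FDXR call was lost without both libraries that stood apart (adjusted p = 0.0618). VLDLR, a lipoprotein receptor listed with amino acid and ER stress genes, rose from 17 ± 3.26 to 34.4 ± 6.42 CPM (adjusted p = 0.00224). Of that list 15 were tested, 1 rose and 1, ATF3, fell, with a median log2 change of -0.08. There were no calls among BMP and TGFβ targets, cholesterol synthesis or heat shock genes. Ribosomal protein genes had a median of -0.23, with 76 of 78 negative and only RPL35 called, from 610 ± 138 to 389 ± 57.1 CPM (adjusted p = 0.00535). Without both libraries that stood apart their median was -0.11 and 59 of 78 were negative. Of 39 HOX genes 17 were at 0 in all 12 libraries and 12 were tested. None of these was called, 10 of 12 had a positive change and the median was 0.66. HOXB4 had 2.35 ± 1.13 and 5.16 ± 2.63 CPM (adjusted p = 0.274) and HOXB3 3.50 ± 1.23 and 6.56 ± 4.32 CPM (0.386), levels that limit any test at this depth.

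**Figure D4:**
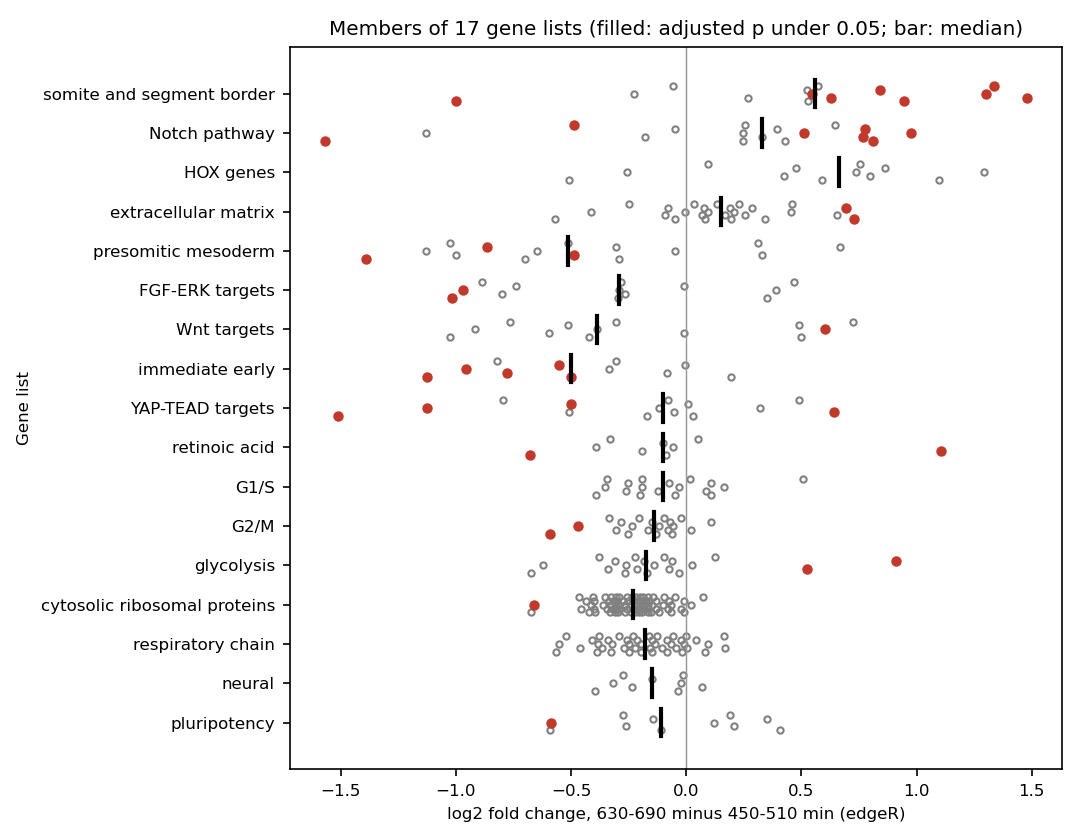
Fitted log2 fold change of each tested member of 17 gene lists, with filled red points for members called at an adjusted p under 0.05 and a bar at the median of the list. The somite list has 7 called members to the right of 0 and 1 to the left, and the ribosomal list lies left of 0 with 1 called member.

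Markers of other cell types mostly showed no call. POU5F1, a pluripotency factor, fell from 131 ± 15.3 to 88.3 ± 7.60 CPM (adjusted p = 0.00345) and was the 1 called gene of 11 tested pluripotency markers. APLNR, the apelin receptor, listed with mesendoderm, rose from 1511 ± 164 to 2296 ± 218 CPM (adjusted p = 0.00145). It was the 1 called gene of 5 tested mesendoderm markers, of which 2 had a positive change, and their median log2 change was -0.30. KDR, a receptor of endothelial precursors, fell from 14.5 ± 3.97 to 7.06 ± 1.90 CPM, and this call was lost when any one of 9 libraries was left out (adjusted p of 0.0504 to 0.133), all but 510 min replicates 1 and 2 and 630 min replicate 1, and without both libraries that stood apart (0.0767). Among sclerotome and myotome markers PAX1, MYF5, MYOD1 and MYOG were at 0 in all 12 libraries, and the summed level of that list was 118 to 186 CPM and then 126 to 222 CPM. Summed neural markers were at 2655 to 4462 CPM and then 2241 to 3945 CPM, with none of 9 called and a median of -0.15, which became 0.21 without both libraries that stood apart. Endoderm markers summed to 227 to 319 and then 294 to 403 CPM, with HNF4A and TTR at 0 and none of 4 tested called. Of these 4, 3 had a positive change, and the median log2 change was 0.58. The part of these cells in the changes above was not tested.

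The same genes were also read in 2 comparisons that share no library with the windows. One was 330-390 against 150-210 min, the same pair of windows moved back by 300 min, where 21.2% of 11239 tested genes were called (9.6% higher and 11.6% lower). Of the genes higher in the late window, 84 of 229 tested there (36.7%) were called higher and 22 (9.61%) lower. Of those lower in the late window, 53 of 153 (34.6%) were called higher and 14 (9.15%) lower. Over all genes tested in both pairs the shares were 9.79% and 11.5%. HEYL rose there by 0.78 on the log2 scale (adjusted p = 0.000426), DUSP5 by 1.98 (7.07e-09), CYR61 by 0.97 (1.6e-05), ANKRD1 by 1.78 (1.21e-05), KRT19 by 1.26 (4.47e-09) and RIPPLY2 by 3.56 (1.9e-09). RSPO3 and CDX1 fell in both pairs, there by 0.79 and 1.03. PAX3 fell there by 0.96 (adjusted p = 0.0343) and rose later.

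The other was the daily series, where Day3 somite cells in the somite medium were set against Day2 presomitic cells in the presomitic medium, 3 libraries each, and 22.6% of 12765 tested genes were called (11.6% higher and 11% lower). Of the late-higher genes, 96 of 236 (40.7%) were called higher at Day3 and 10 (4.24%) lower. Of the late-lower genes, 18 of 151 (11.9%) were called higher and 33 (21.9%) lower, against 12.4% and 11.8% of all genes. Leaving out Day3 replicate 3 brought the called genes from 2890 to 1692. MEOX1 was at 0.121 ± 0.209 CPM at Day2 and 171 ± 43.2 CPM at Day3, and FOXD1 at 1.10 ± 1.6 and 81.2 ± 44.3 CPM. PCDH8, a riser of the late window, was at 34.5 ± 15.8 and 32.8 ± 16.3 CPM there (adjusted p = 0.933), far under its 1907 ± 185 CPM in the late window, and RIPPLY2, at 67.4 ± 15.3 CPM in the late window, was at 0 in all 6 daily libraries. KRT19 and ANKRD1, which fell between 450-510 and 630-690 min, rose at Day3 by 2.29 and 3.23 on the log2 scale (adjusted p = 5.43e-05 and 0.0187).

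**Figure D5:**
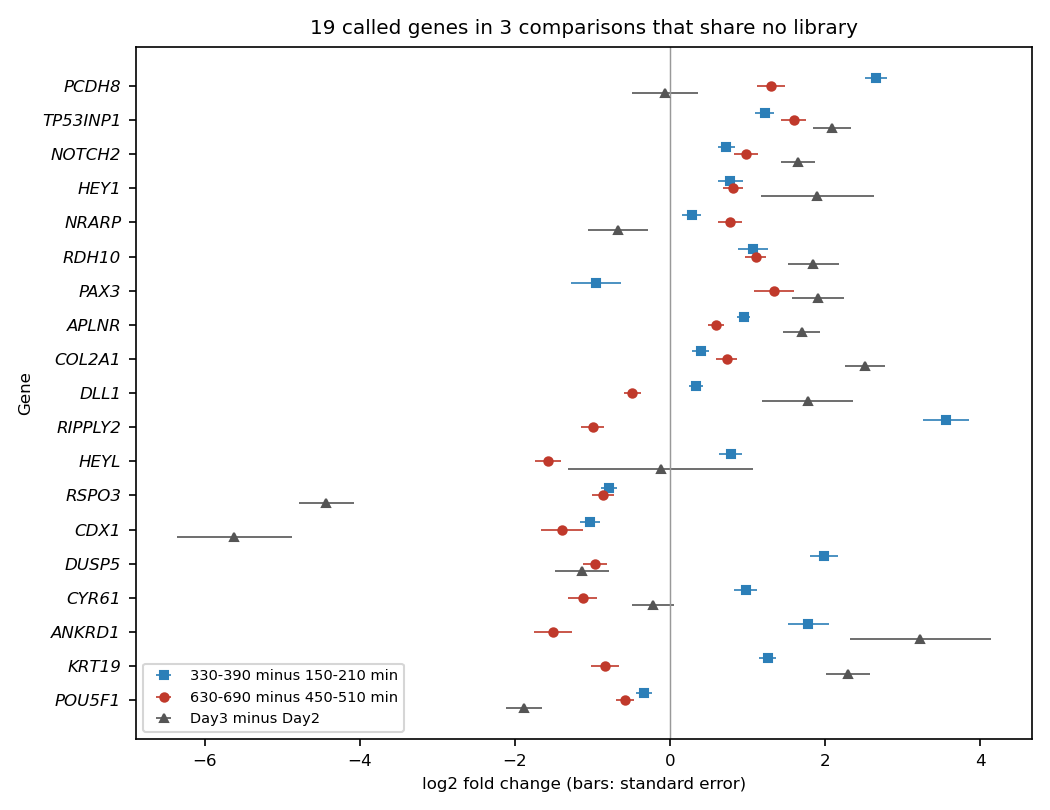
Fitted log2 fold change with its standard error for 19 called genes in 630-690 minus 450-510 min (red circles), 330-390 minus 150-210 min (blue squares) and Day3 minus Day2 (grey triangles), which share no library. DUSP5, CYR61, ANKRD1 and KRT19 lie right of 0 in the earlier pair and left of 0 in the late pair, while RSPO3, CDX1 and POU5F1 lie left of 0 in all 3; RIPPLY2 was at 0 in the daily libraries and has no triangle, and CDX1 was at 0.550 CPM at Day3.

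The late libraries were also compared with those at 330-390 min, 300 min earlier. No period of a cycle was estimated here. In this pair 1425 of 11284 genes were called (12.6%, with 6.24% higher and 6.39% lower). This comparison shares the late libraries, so only the values of single genes are given beside each other. MEOX1 was higher in the late window by 0.94 log2 units against 450-510 min and by 2.28 against 330-390 min. HEYL was lower by log2 changes of -1.57 and -2.39, and DLL1 by -0.49 and -0.87. RIPPLY2, at -1.0 against 450-510 min, was at -0.26 against 330-390 min and not called there (adjusted p = 0.339). DDIT4, an mTOR inhibitor induced by stress and low oxygen, was at -0.41 (adjusted p = 0.0410) and -0.29 (0.105), and its late call was lost when any one of 9 libraries was left out, all but 480 min replicate 2, 510 min replicate 1 and 630 min replicate 1 (adjusted p of 0.0532 to 0.102). It was also lost without both libraries that stood apart (0.0575).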

How the data were processed

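RNA-seq libraries were made with LM-seq from total RNA of lysed cultures, per the labels. The authors deposited expected counts per gene, estimates that need not be whole, for 19084 genes without mitochondrial genes, and a second table of TPM values that they had rescaled. Per the submitters' processing notes, the aligner was Bowtie 0.12.2, with hg19 and mm8 as builds. The program behind the expected counts, the annotation and what mm8 was for are not stated in the labels or file headers used here. Genes are named by the deposited symbols, and gene coordinates of the files' build were not used here.

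Groups came from the labelled times. Expected counts were rounded and tested with edgeR 4.0.16 in R 4.3.3 (quasi-likelihood F test, TMM, filterByExpr on the 12 libraries, Benjamini-Hochberg over the genes tested, threshold 0.05), which left 11389 genes. Levels are CPM on TMM-scaled totals over all 58 libraries. Named genes are the 12 largest rises and 12 largest falls among called genes with at least 10 CPM in the higher window and no overlap between windows, from each gene list at most the 3 called genes of lowest adjusted p, and a panel of 25 clock, presomitic and somite genes. CTGF, EPHA4, FOXC1, MAML3 and RBPJ were named after their values were seen. The comparison, gene lists and panel were chosen with earlier results of these data known. Just inside the threshold were DOK5, HSPA12B and SASH1 (adjusted p = 0.0491 each), and just outside it FAIM (0.0502), NDUFB10 (0.0514) and SMC4 (0.0514).

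Promoters came from a RefSeq table and were matched by symbol, CTGF as CCN2. Over 15 pairs of time points, the deviations of same-numbered replicates correlated at r -0.0714 to 0.0871, so the numbers were not taken to pair libraries. The scripts were tested on simulated data. Alternatives were DESeq2 1.42.0, limma 3.58.1 on log2(TPM + pseudocount), other scalings, filters and designs, and omission of each library or time point.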

Additional observations from a re-analysis of the deposited data

Results flagged for a closer look

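In 9 of 170 groups of 6 libraries, the highest or lowest library of a named gene was set off from the others by more than Dixon's 95% limit. Chance alone gives about 1 in 20 groups. At 450-510 min, GJA5 was highest at 33.0 CPM in 510 min replicate 1 (next 18.9 CPM), IER5 highest at 164 CPM in 450 min replicate 2 (next 124 CPM) and LFNG highest at 370.2 CPM in 450 min replicate 1 (next 253 CPM). FGF17 was highest at 23.6 CPM in 450 min replicate 2 (next 12.8 CPM). On the low side of the same window, YAP1 was at 95.8 CPM in 450 min replicate 2 (next 157 CPM), ALDH1A2 at 123 CPM in 510 min replicate 1 (next 187 CPM) and CENPE at 219.6 CPM in 450 min replicate 1 (next 253 CPM). At 630-690 min, RIPPLY1 was highest at 402 CPM (next 324 CPM) and MSGN1 at 4.13 CPM (next 2.17 CPM), both in 630 min replicate 1. The libraries that stood apart, 450 min replicate 2 and 510 min replicate 1, held 3 and 2 of the 9 values.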

How the results depend on the processing

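None of the 65 called named genes changed direction in any of the alternatives run, and 50 kept their call without each single library in turn. All 65 calls were kept with RLE scaling, DESeq2 and the fit of 46 libraries. The replicate block, with the replicate number as a term, gave 356 calls (222 higher, 134 lower), 353 of them shared, and CDH2 and DDIT4 lost theirs; it moved no other call of a named gene, and 1 HOX gene was then called.  The block gave 1385 calls for 630-690 against 330-390 min and 2806 for Day3 against Day2.

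The numbers of calls between the windows (all, higher, lower) moved by over 1.5 times with the following. The 46 libraries gave 1126, 562 and 564, replicate 1 alone 15, 14 and 1, and replicate 2 alone 128, 79 and 49, with fewer samples in the last 2. Without 480 min they were 232, 154 and 78, without 660 min 157, 115 and 42, without 690 min 125, 93 and 32, and without 630 min 613 in all and 302 lower. Lower genes numbered 243 with one mean per time point, 59 with limma on log2(TPM + 1) and 52 with limma on log2(TPM + 0.1). At 1 log2 unit or more 98, 64 and 34 remained. Leaving out 1 library gave 232 to 640 calls, 160 to 347 higher and 72 to 293 lower. It gave 1138 to 1765 for 630-690 against 330-390 min and 1692 to 3194 for Day3 against Day2. The cause of these moves was not tested.

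Only uncalled genes turned direction, all with adjusted p over 0.7. DLL3 was at 0.0782 with replicate 1 alone, 0.0056 without scaling, 0.0992 and 0.0995 with limma, 0.0484 without 450 min and 0.0063 without 690 min. ALDH1A2 was at 0.0754 with replicate 1 alone, 0.0020 without scaling, 0.0752 and 0.0758 with limma, 0.0087 without 480 min and -0.145 to 0.0197 without 1 library (0.00095 without 630 min replicate 1, the highest without 660 min replicate 2). FGF17 was at 0.0653 with replicate 1 alone and 0.0349 without 450 min, and CDX2 at -0.62 with replicate 2 alone. Genes under about 1 CPM are at the limit of these depths.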
